A study of Saccharomyces cerevisiae with 8 samples.

Results

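HSP60, HSP10, SSC1, MDJ1, MGE1, ECM10, PIM1 and YME1, the 8 genes described here, encode the central folding and proteolysis machinery of yeast mitochondria. They were chosen by name and function, with earlier results of these data known, and are 8 of the 6337 genes in the deposited count table. Poly(A)-selected RNA from Saccharomyces cerevisiae was sequenced from 4 strains with 2 libraries each, grown in rich glucose medium (YPD) at 30 °C to mid-exponential phase. Wild type is labelled BY4741, MATa his3Δ1 leu2Δ0 ura3Δ0 met15Δ0, and the other strains carry hel2Δ::LEU2 (hel2∆), ncs2Δ::HIS3MX with elp6Δ::URA3 (ncs2∆elp6∆), or all of these deletions (ncs2∆elp6∆hel2∆). Ncs2 and Elp6 are needed to modify uridine 34 (U34), the wobble base of several tRNAs, and Hel2 ubiquitinates ribosomes that have run into one another, which starts ribosome quality control (RQC).

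The libraries held 13252947 to 23941037 counts over all genes. HEL2 had 1246 to 1918 counts in strains with the gene and 0, 0, 0 and 1 in the hel2∆ and ncs2∆elp6∆hel2∆ libraries. NCS2 and ELP6 had at most 11 counts in each ncs2∆elp6∆ and ncs2∆elp6∆hel2∆ library. MET17, the gene deleted in met15Δ0 strains, had 4321 to 6651 counts in the libraries without U34 modification and 0 to 6 in the wild-type and hel2∆ libraries, so the loss of U34 modification and the presence of MET17 cannot be told apart in any comparison between these strains. By the labels, loss of HEL2 also comes with the marker LEU2, and loss of NCS2 and ELP6 with HIS3MX and URA3. Effects of a deletion and of its marker cannot be told apart either. The study calls the mRNA libraries of ncs2∆elp6∆ and ncs2∆elp6∆hel2∆ biological replicates, but for ncs2∆elp6∆ it names more of them than the 2 used here. The labels number the 2 libraries of each strain without naming cultures. The p-values measure the spread between these libraries. Counts were scaled to 1000000 per library (CPM), so a level is a share of the mRNA of a library and not an amount per cell.

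Most mitochondrial proteins are made in the cytosol and cross the mitochondrial membranes unfolded. In the matrix, the Hsp70 Ssc1 helps to pull them in and to fold them, in a cycle in which the J-protein Mdj1 stimulates ATP hydrolysis and Mge1 releases the nucleotide, and many proteins are then folded inside the barrel formed by Hsp60 and closed by Hsp10. Pim1, the Lon protease of the matrix, and Yme1, the catalytic subunit of the i-AAA protease of the inner membrane, degrade misfolded and surplus proteins.

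Upstream sequences are shown for the chaperonin pair, whose windows held heat shock elements, and for MDJ1 and PIM1, the members with the largest differences between strains. Each covers the bases from 250 to 101 before the start codon, from RefSeq on the R64 assembly (sacCer3, the build the submitters name), 5′ to 3′ on the coding strand. Capitals mark alternating GAA and TTC units 2 bases apart in HSP60 and HSP10 and the element TTTGCCACC in PIM1, and MDJ1 held none of the elements searched.
HSP60, chrXII:665103-665252, minus strand: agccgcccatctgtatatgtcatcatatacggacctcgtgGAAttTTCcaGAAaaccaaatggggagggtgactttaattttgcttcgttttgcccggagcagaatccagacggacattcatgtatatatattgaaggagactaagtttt
HSP10, chrXV:370945-371094, minus strand: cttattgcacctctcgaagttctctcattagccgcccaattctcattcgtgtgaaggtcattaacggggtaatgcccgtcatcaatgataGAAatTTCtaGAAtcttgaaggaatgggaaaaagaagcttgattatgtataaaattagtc
MDJ1, chrVI:106337-106486, minus strand: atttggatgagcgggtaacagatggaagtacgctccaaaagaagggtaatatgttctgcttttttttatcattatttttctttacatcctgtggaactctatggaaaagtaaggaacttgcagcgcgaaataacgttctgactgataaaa
PIM1, chrII:181376-181525, minus strand: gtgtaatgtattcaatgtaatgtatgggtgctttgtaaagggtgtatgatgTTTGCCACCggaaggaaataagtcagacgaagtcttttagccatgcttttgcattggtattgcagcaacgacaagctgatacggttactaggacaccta

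Each search covered both strands of the 300 bases from 250 before to 50 after the start codon, in 5803 genes. The heat shock core, GAANNTTC or TTCNNGAA, is the paired form of the unit that the heat shock factor Hsf1 binds, and 22.9% of all windows held at least 1. HSP60 held 3 cores and HSP10 held 2, and in each gene 2 overlapping cores formed a run of 3 alternating units, which 0.8% of windows held. The run began 210 bases before the HSP60 start codon and 160 bases before that of HSP10. The remaining 6 members held no core. The stress response element AGGGG or CCCCT, bound by Msn2 and Msn4, was in 21.9% of windows and among the members only in ECM10. The element of PIM1 is the one for which the proteasome gene activator Rpn4 is known (GGTGGCAAA or TTTGCCACC). It was searched after the transcripts most like PIM1 had been seen, and it was in 1.22% of windows. These matches describe letters and are not evidence of binding.

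The 8 transcripts covered a wide range of levels. Per kilobase of coding sequence, the mean over all libraries was 1993 CPM for HSP10, 477 for SSC1, 420 for HSP60, 209 for MGE1, 105 for MDJ1, 83.2 for YME1, 69.0 for PIM1 and 14.3 for ECM10. HSP10 therefore stood at the 97.5th percentile of 5648 genes on this scale and ECM10 at the 13.9th percentile. All 8 passed the filter on low counts and were among the 6087 genes tested.

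**Figure D1:**
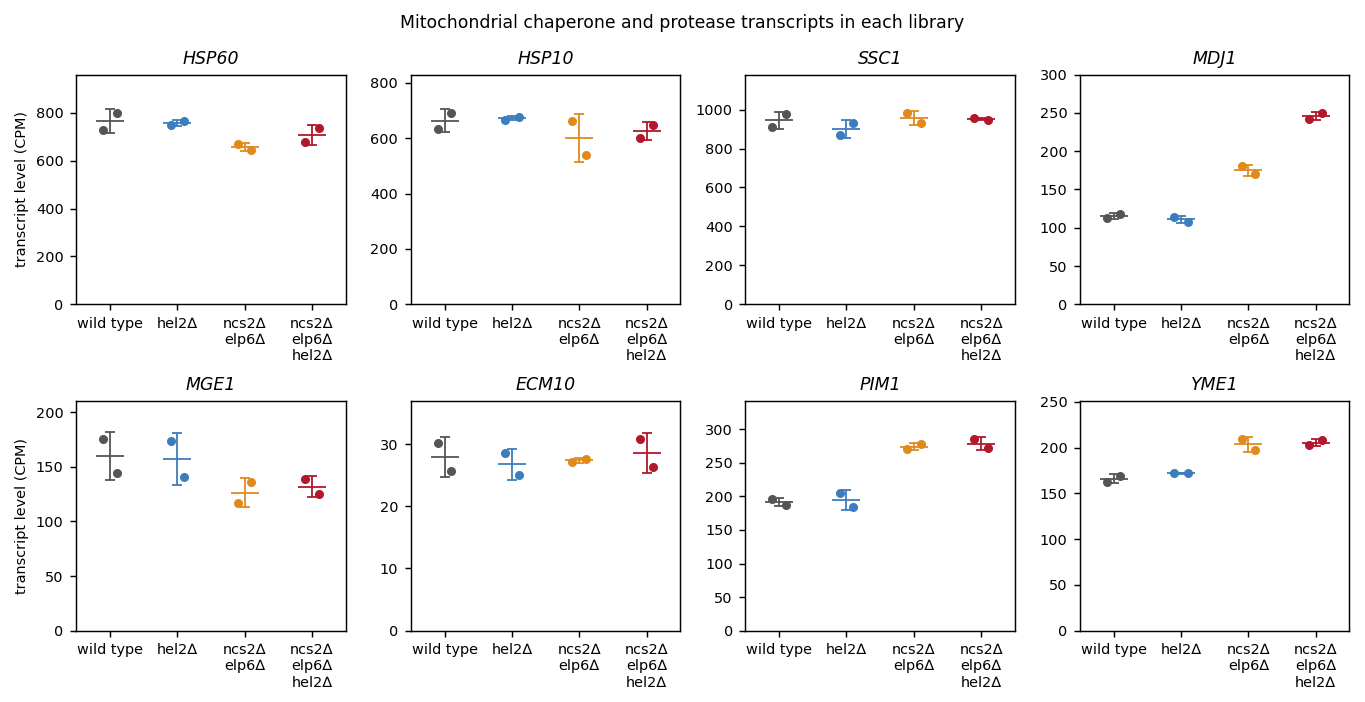
Level of each member in CPM in the 2 libraries of each strain; each dot is a library, bars are strain means and error bars are the SD. MDJ1 stepped up from 108 to 118 CPM in wild type and hel2∆ to 170 to 180 in ncs2∆elp6∆ and 242 to 250 in ncs2∆elp6∆hel2∆, and PIM1 and YME1 were higher in both strains without U34 modification.

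The first comparison asked whether loss of Hel2 alone was accompanied by a change in these transcripts. Between hel2∆ and wild type none of the 8 was called in the quasi-likelihood test of edgeR with Benjamini-Hochberg adjustment over all genes tested (adjusted p under 0.05, the rule for every call here), against 0.657% of all genes, 0.312% higher and 0.345% lower. DESeq2 also called 0, and 0 had an unadjusted p under 0.05. The log2 fold changes lay between -0.07 and 0.05, and each had an adjusted p of 0.998.

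Loss of U34 modification with Hel2 present was tested between ncs2∆elp6∆ and wild type. Transcripts of MDJ1, PIM1 and YME1 were higher, by 1.52-fold, 1.43-fold and 1.23-fold. These 3 of 8 members stand against 27.9% of all genes called, 14.9% higher and 13% lower, so the share called is near that of the genome. The main chaperones of the matrix, HSP60, HSP10 and SSC1, were not among them. The median log2 fold change of the members was -0.005, beside 0.03 over all genes. The same comparison with Hel2 absent, ncs2∆elp6∆hel2∆ against hel2∆, again called MDJ1, PIM1 and YME1 higher. Of all genes, 28.8% were called there, 15.1% higher and 13.8% lower. It sets other libraries against each other, but scaling and spread were estimated over all 8 libraries. The calls of these comparisons are therefore not independent.

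Loss of Hel2 from cells that already lack U34 modification was tested between ncs2∆elp6∆hel2∆ and ncs2∆elp6∆. It called 1 of the 8, MDJ1, which was higher, where 6.93% of all genes were called, 2.81% higher and 4.12% lower. Between ncs2∆elp6∆hel2∆ and wild type, 3 members were called, again MDJ1, PIM1 and YME1, against 29.9% of all genes, 14.9% higher and 14.9% lower. That comparison shares its libraries with the others and gives no separate evidence. The interaction asks whether loss of U34 modification had another effect with Hel2 absent than with Hel2 present. It called MDJ1 alone, against 1.13% of all genes, 0.969% with a positive and 0.164% with a negative term.

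Separation of the libraries is a weaker criterion than a call. The libraries of the compared strains did not overlap for 5 of the 8 members in ncs2∆elp6∆ against wild type, beside 65.5% of all genes, and for 7 in ncs2∆elp6∆hel2∆ against hel2∆, beside 66.2%. They did not overlap for 4 members in ncs2∆elp6∆hel2∆ against wild type (66.8% of all genes), 2 against ncs2∆elp6∆ (56.9%) and 1 in hel2∆ against wild type (28.9%). None of these shares sets the members apart from other genes by a test.

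**Figure D2:**
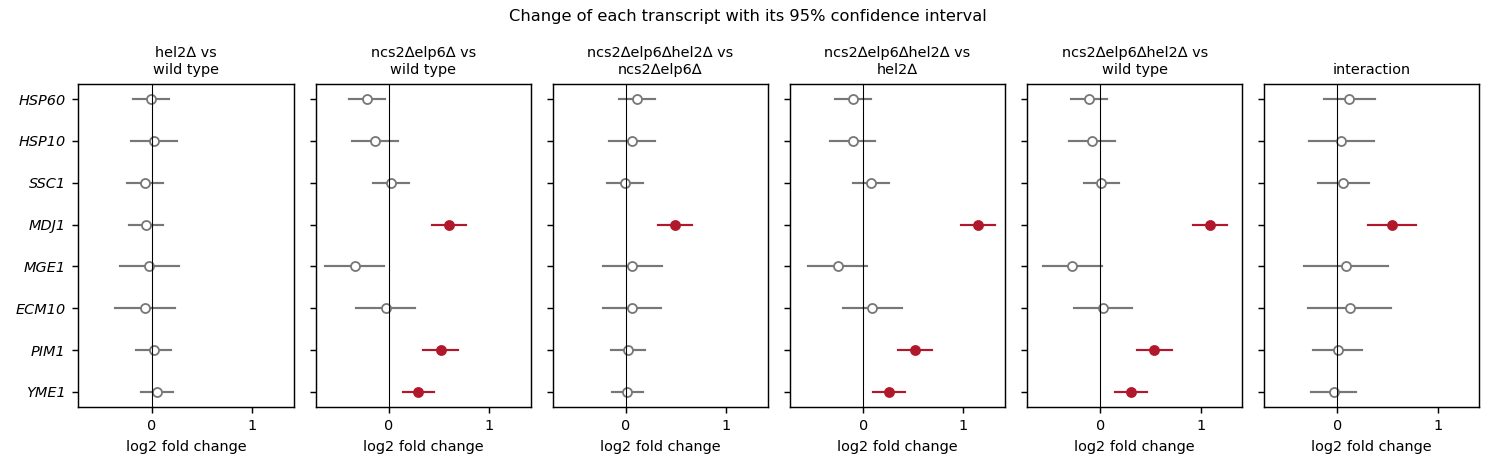
Log2 fold change of each member in the comparisons of the strains and in the interaction; lines are 95% confidence intervals from edgeR, and filled red points passed adjusted p under 0.05. MDJ1 lies above 0 wherever U34 modification was lost and once more on loss of HEL2 in that background, PIM1 and YME1 were called only where U34 modification was lost, and no member was called lower.

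Among the folding factors, the chaperonin genes are described first. HSP60 (YLR259C, chrXII:663284-665002, minus strand, a single exon in the annotation, which gives no UTR here) encodes the subunit of the barrel. It had 730 and 800 CPM in wild type, with 750 and 768 for hel2∆, 669 and 646 for ncs2∆elp6∆ and 679 and 736 for ncs2∆elp6∆hel2∆. The ncs2∆elp6∆ libraries were the lowest and lay below both wild-type libraries, whereas those of ncs2∆elp6∆hel2∆ overlapped the wild-type range. In ncs2∆elp6∆ against wild type, the log2 difference was -0.22 ± 0.080 (SE; 95% confidence interval -0.40 to -0.04), with an adjusted p of 0.0684 by edgeR. DESeq2 called this difference, at -0.245 with an adjusted p of 0.0325, and with edgeR it lay between -0.28 without wild type replicate 1 and -0.11 with library totals alone.

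HSP10 (YOR020C, chrXV:370524-370844, minus strand), the lid of the barrel, had 633 and 692 CPM in wild type, with 667 and 677 for hel2∆, 661 and 539 for ncs2∆elp6∆ and 602 and 648 for ncs2∆elp6∆hel2∆. The ncs2∆elp6∆ libraries stood far apart from each other, and replicate 1 of that strain lay within the wild-type range. No comparison called HSP10, and its largest difference was -0.14 on the log2 scale in ncs2∆elp6∆ against wild type, with an adjusted p of 0.333. That value was -0.34 (adjusted p 0.0664) without ncs2∆elp6∆ replicate 1 and -0.02 (adjusted p 0.900) without ncs2∆elp6∆ replicate 2. The ratio of HSP60 to HSP10, per kilobase of coding sequence and within a library, was 0.189 to 0.224 in the ncs2∆elp6∆ libraries, which spanned the whole range of the series. In the other 6 libraries it lay between 0.210 and 0.216. Over the 8 libraries, log2 CPM of the pair had a Pearson correlation of 0.803, given as a description because the libraries share strains and differ in depth.

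SSC1 (YJR045C, chrX:519638-521602, minus strand), the major Hsp70 of the matrix and the ATPase of the import motor, was steady across the strains. It had 913 and 976 CPM in wild type, with 868 and 931 for hel2∆, 983 and 932 for ncs2∆elp6∆ and 954 and 948 for ncs2∆elp6∆hel2∆. All strains overlapped except that both ncs2∆elp6∆ libraries and both ncs2∆elp6∆hel2∆ libraries lay just above those of hel2∆. The log2 difference was 0.02 in ncs2∆elp6∆ against wild type (95% confidence interval -0.16 to 0.20) and 0.08 between ncs2∆elp6∆hel2∆ and hel2∆, with adjusted p-values of 0.870 and 0.472.

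ECM10 (YEL030W, chrV:94644-96578, plus strand) encodes a second matrix Hsp70 that resembles Ssc1. The encoded proteins had 654 and 644 residues and were 80.7% identical, whereas Ssc1 and Ssq1, the Hsp70 of iron-sulfur cluster assembly, were 53.7% identical. ECM10 stayed between 25.0 and 30.8 CPM in all 8 libraries, the strains overlapped, and no comparison called it. SSC1 exceeded ECM10 by 29.7 to 37.5 times per kilobase within a library. The coding sequences were 77.1% identical, and no window of 50 bases was shared with at most 1 mismatch, so few reads could fall to the wrong gene of the pair.

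MDJ1 (YFL016C, chrVI:104701-106236, minus strand), the J-protein that stimulates Ssc1, changed most. It had 112 and 118 CPM in wild type, with 114 and 108 for hel2∆, 180 and 170 for ncs2∆elp6∆ and 242 and 250 for ncs2∆elp6∆hel2∆. The wild-type and hel2∆ libraries overlapped, while each further step was separated by a clear gap. Without U34 modification it was higher by 0.60 ± 0.075 on the log2 scale with Hel2 present (adjusted p 0.00047) and by 1.15 ± 0.075 with Hel2 absent (adjusted p 6.33e-06, 2.22-fold). Loss of Hel2 had a log2 difference of -0.05 in cells with the modification (adjusted p 0.998) and of 0.49 ± 0.074 in cells without it (1.40-fold, adjusted p 0.00672).

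The interaction for MDJ1 was 0.54 ± 0.11 (95% confidence interval 0.31 to 0.78) with an adjusted p of 0.0454, close to the threshold. It lost its call when any library other than hel2∆ replicate 1 was left out, with adjusted p-values from 0.0722 to 0.226. The call on loss of Hel2 in ncs2∆elp6∆ was lost without ncs2∆elp6∆ replicate 2 (log2 difference 0.47, adjusted p 0.0888). The direction was the same in every alternative run.

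MGE1 (YOR232W, chrXV:774573-775259, plus strand), the nucleotide exchange factor of Ssc1, had lower values without U34 modification. It had 175 and 144 CPM in wild type, with 174 and 141 for hel2∆, 117 and 136 for ncs2∆elp6∆ and 138 and 125 for ncs2∆elp6∆hel2∆. All libraries without the modification lay below those with it, but replicates of a strain lay far apart. The log2 difference was -0.34 ± 0.13 in ncs2∆elp6∆ against wild type (95% confidence interval -0.63 to -0.04, adjusted p 0.0832) and -0.25 in ncs2∆elp6∆hel2∆ against hel2∆ (adjusted p 0.171), and edgeR called neither. DESeq2 called the former, at -0.37 with an adjusted p of 0.0275. With edgeR the former depended on single libraries, from -0.19 (adjusted p 0.396) without wild type replicate 1 to -0.47 (adjusted p 0.0384) without wild type replicate 2. It was also called without hel2∆ replicate 2 (-0.34, adjusted p 0.0491) and when fitted to the strains compared alone (-0.37, adjusted p 0.0342), and it was not called without ncs2∆elp6∆ replicate 1 (-0.28, adjusted p 0.284) or with library totals alone (-0.23, adjusted p 0.223).

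Ratios between transcripts of the Hsp70 cycle are given as a description, since no ratio was tested. Within a library and per kilobase of coding sequence, the ratio of SSC1 to MDJ1 was 6.34 and 6.46 for wild type, 5.93 and 6.76 for hel2∆, 4.26 and 4.28 for ncs2∆elp6∆, and 3.08 and 2.96 for ncs2∆elp6∆hel2∆. Replicates lay close together except in hel2∆, and the ordering was that of MDJ1 itself, since SSC1 hardly varied. The ratio of SSC1 to MGE1 ran the other way, from 1.75 to 2.37 in strains with the modification and from 2.40 to 2.94 in those without it. That gap was narrow, and edgeR called no difference of MGE1. These are ratios of transcripts, and protein levels were not analysed here.

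**Figure D3:**
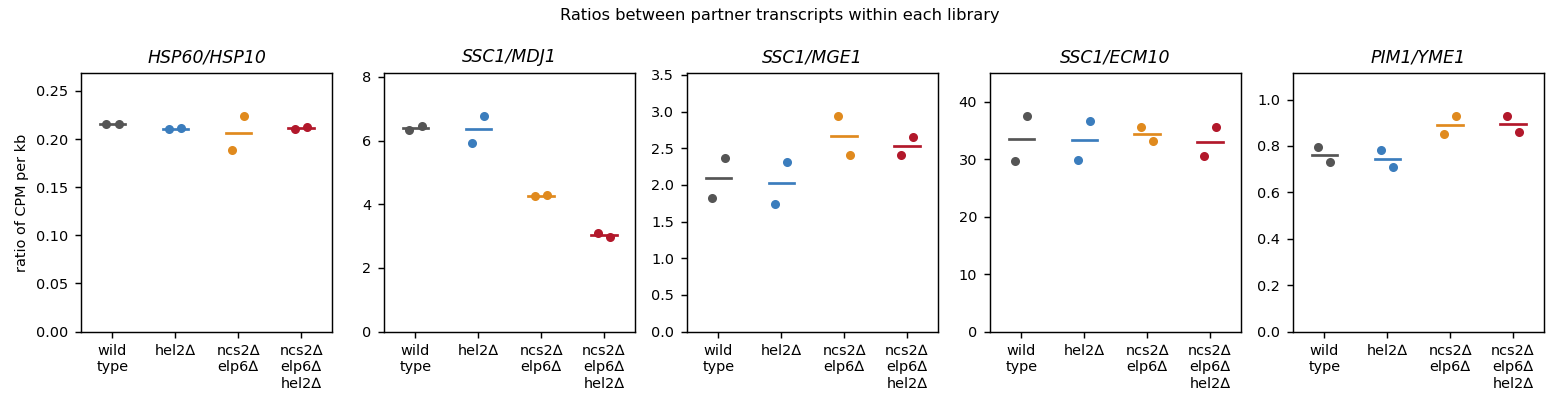
Ratios of members within each library, from CPM per kilobase of coding sequence; each dot is a library and each panel has its own axis. SSC1 to MDJ1 was 5.93 to 6.76 in wild type and hel2∆, 4.26 and 4.28 for ncs2∆elp6∆, and 2.96 and 3.08 for ncs2∆elp6∆hel2∆, while HSP60 to HSP10 stayed between 0.189 and 0.224.

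PIM1 (YBL022C, chrII:177874-181275, minus strand), the Lon protease, had 196 and 188 CPM in wild type, with 205 and 184 for hel2∆, 270 and 278 for ncs2∆elp6∆ and 285 and 272 for ncs2∆elp6∆hel2∆. Every library without U34 modification lay above every library with it, and Hel2 made no visible step in either background. Without the modification PIM1 was higher by 0.52 ± 0.077 on the log2 scale with Hel2 present (adjusted p 0.00129) and by 0.52 ± 0.077 with Hel2 absent (1.43-fold, adjusted p 0.00112). The interaction was 0.001 with an adjusted p of 0.998, and PIM1 kept its calls in every alternative run.

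YME1 (YPR024W, chrXVI:610481-612724, plus strand), the i-AAA protease subunit, moved the same way by less. It had 163 and 169 CPM in wild type, with 172 and 172 for hel2∆, 209 and 198 for ncs2∆elp6∆ and 203 and 208 for ncs2∆elp6∆hel2∆, with no overlap between strains that have the modification and strains that lack it. On the log2 scale ncs2∆elp6∆ exceeded wild type by 0.29 ± 0.070 (adjusted p 0.0132) and ncs2∆elp6∆hel2∆ exceeded hel2∆ by 0.26 ± 0.070 (adjusted p 0.0228). The former lost its call without wild type replicate 1, ncs2∆elp6∆ replicate 1 or ncs2∆elp6∆ replicate 2 (adjusted p 0.0549 to 0.145). The latter lost it on leaving out any 1 of its 4 libraries (adjusted p 0.0723 to 0.122). Against wild type, ncs2∆elp6∆hel2∆ had a difference of 0.31 (adjusted p 0.0104), whose call was lost without wild type replicate 1 (adjusted p 0.0562) or ncs2∆elp6∆hel2∆ replicate 2 (adjusted p 0.0647).

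The proteases and MDJ1 also tracked one another over the 8 libraries, with Pearson correlations of log2 CPM of 0.947 for PIM1 and YME1, 0.922 for MDJ1 and PIM1, and 0.921 for MDJ1 and YME1. HSP60 and PIM1 had a correlation of -0.834, and MGE1 and YME1 of -0.828. The strain means shape these values, and they are given as a description.

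Among 4829 genes with a mean of at least 20 CPM, those whose pattern over the 8 libraries was most like that of MDJ1 were EXG1, a cell wall glucanase (Pearson correlation 0.998), HSP78, the matrix disaggregase (0.993), and IDH1, a subunit of isocitrate dehydrogenase (0.991). For PIM1 they were UBX4 (0.996), RPN11, the deubiquitinase of the proteasome lid (0.994), and RPT2, an ATPase of the proteasome base (0.993). RPN11 and RPT2 held the element shown for PIM1, 124 and 131 bases before their start codons against 199 in PIM1, and UBX4 held none. The element was searched after this likeness was seen, so finding it in proteasome genes is not separate evidence. For YME1 they were NAB2 (0.992), RCR1 (0.991) and PUN1 (0.987), and for HSP60 they were ADH1 (0.981), HEM13 (0.968) and WSC2 (0.963).

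Other matrix chaperones and folding factors gave 9 further genes, of which 1 was called higher and 2 lower in ncs2∆elp6∆ against wild type, a share near the 27.9% of all genes called (14.9% higher and 13% lower). HSP78, which resolves aggregates together with the Ssc1 system, had 154 to 158 CPM in wild type, 142 to 152 in hel2∆, 295 to 328 in ncs2∆elp6∆ and 618 to 622 in ncs2∆elp6∆hel2∆, the order seen for MDJ1 with larger steps. Its log2 differences were 1.00 ± 0.078 on loss of U34 modification (adjusted p 3.19e-05), 0.99 ± 0.077 on further loss of Hel2 (adjusted p 7.72e-05) and 1.08 ± 0.11 for the interaction (adjusted p 0.000808). The upstream window of HSP78 held 3 heat shock cores, whereas that of MDJ1 held none. The runs of alternating units in HSP78 began close to the far edge of the window, which ends 250 bases before the start codon. Sequence farther upstream and units with wider gaps were not searched. The search therefore does not show that MDJ1 lacks heat shock elements.

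ZIM17, a partner protein that keeps Ssc1 soluble, was lower without U34 modification in the presence of Hel2 (-0.37, adjusted p 0.0271), and so was TCM62, a protein related to Hsp60 (-0.33, adjusted p 0.0277). With Hel2 absent, 2 of the 9 were called higher and 2 lower, against 28.8% of all genes called, including ZIM17 (-0.45, adjusted p 0.0104) and PRX1, the mitochondrial peroxiredoxin (0.40, adjusted p 0.00248). PRX1 had 104 to 107 CPM in hel2∆, 130 to 132 in wild type, 125 to 127 in ncs2∆elp6∆ and 138 to 142 in ncs2∆elp6∆hel2∆. The values of hel2∆ were thus the lowest, but edgeR did not call its difference from wild type (-0.31, adjusted p 0.155). On loss of Hel2 from ncs2∆elp6∆ and in the interaction, HSP78 was the gene called.

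Of 8 genes of the import motor and TIM23 translocase, which feed precursors to Ssc1, 3 were called lower and none higher in ncs2∆elp6∆ against wild type, where 27.9% of all genes were called and 13% called lower. They were PAM17 (-0.53, adjusted p 0.000776), TIM44, which anchors Ssc1 at the channel (-0.50, adjusted p 0.000978), and PAM16, the partner of the J-protein of the motor (-0.45, adjusted p 0.00832). The same genes were the 3 called in ncs2∆elp6∆hel2∆ against hel2∆, at -0.55, -0.26 and -0.39, where 28.8% of all genes were called. Of 8 genes of the TOM complex, the entry gate of the outer membrane, 2 were called lower in ncs2∆elp6∆ against wild type, again near the 27.9% of all genes. They were the receptor TOM20 (-0.77, adjusted p 0.000129) and TOM5 (-0.54, adjusted p 0.0411). TOM20 alone was called with Hel2 absent (-0.54, adjusted p 0.000759), where TOM5 had 107 and 166 CPM in the ncs2∆elp6∆hel2∆ libraries.

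Beyond PIM1 and YME1, 18 proteases, processing peptidases, adaptors and prohibitins were tested. In ncs2∆elp6∆ against wild type 6 were higher and 3 lower, where 14.9% of all genes were higher and 13% lower. In ncs2∆elp6∆hel2∆ against hel2∆ 6 were again higher and 3 lower, where 15.1% of all genes were higher and 13.8% lower. The catalytic subunits of the inner membrane peptidase had the largest differences in the former, IMP1 at -0.79 (adjusted p 0.0011) and IMP2 at -0.73 (adjusted p 0.0043). MGR1, an adaptor of the Yme1 protease, rose by 0.47 (adjusted p 0.0254), from 39.4 and 43.1 CPM to 51.3 and 62.8. Against wild type, OMA1, a stress-activated metalloprotease of the inner membrane, was 0.45 higher in ncs2∆elp6∆hel2∆ (adjusted p 0.00302), with 69.4 and 72.0 CPM against 50.1 and 53.2.

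The median log2 fold change in ncs2∆elp6∆ against wild type was -0.13 over the other matrix chaperones, -0.18 over the import motor and translocase, -0.09 over the TOM complex and 0.14 over the proteases and processing factors, beside 0.03 over all genes. With ncs2∆elp6∆hel2∆ set against wild type, the calls were 1 higher and 2 lower, 3 lower, 1 lower, and 5 higher and 2 lower, in the same order, where 29.9% of all genes were called (14.9% higher and 14.9% lower). On loss of Hel2 in either background, and in the interaction, edgeR called none of the import, TOM or protease genes. At an unadjusted p under 0.05 there were at most 2 genes of a list in each of these comparisons, and DESeq2 called 1, a TOM gene on loss of Hel2 from ncs2∆elp6∆.

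**Figure D4:**
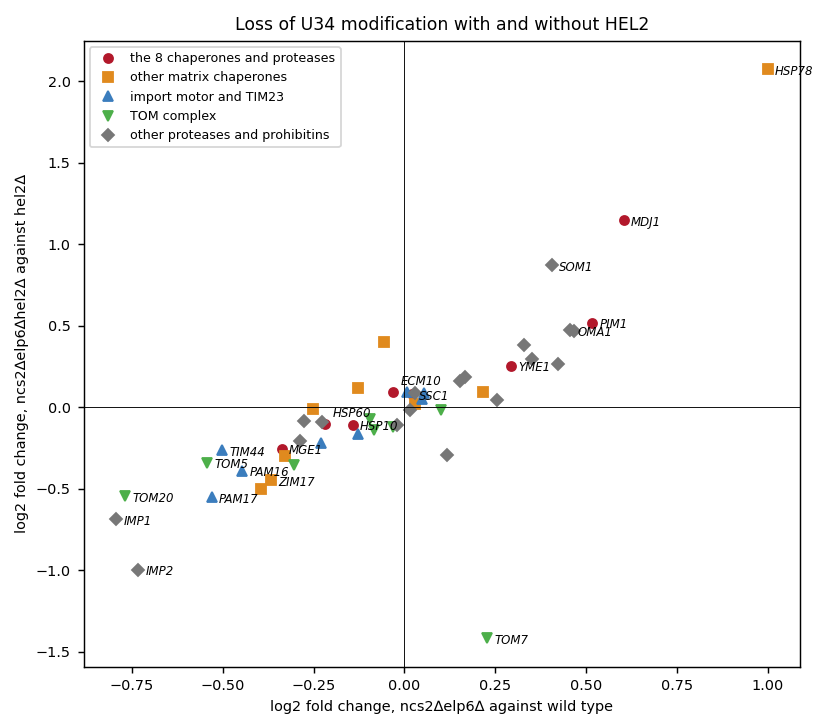
Log2 fold change on loss of U34 modification with Hel2 present (ncs2∆elp6∆ against wild type, x axis) and absent (ncs2∆elp6∆hel2∆ against hel2∆, y axis) for the members and the related mitochondrial genes. The axes compare different libraries, within a fit to all 8 libraries. HSP78 at 1.00 and 2.08 and MDJ1 at 0.60 and 1.15 lie above the diagonal, PIM1 and YME1 lie near it, and TOM20, IMP1 and IMP2 lie at the lower left.

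The activator HSF1 was itself modestly higher where U34 modification was lost. Its transcript had 110 and 91.5 CPM in wild type, with 107 and 102 for hel2∆, 136 and 136 for ncs2∆elp6∆ and 128 and 135 for ncs2∆elp6∆hel2∆. The libraries without the modification lay above all others, and the log2 difference was 0.43 ± 0.095 with Hel2 present (adjusted p 0.00969) and 0.33 with Hel2 absent (adjusted p 0.0300). By edgeR, HSP60 and HSP10, the members with heat shock elements in their windows, were not called in these comparisons. DESeq2 called HSP60 lower in ncs2∆elp6∆ against wild type. The study followed Hsf1 by the location of Hsf1-GFP, which moved to the nucleus in ncs2∆elp6∆hel2∆. It also reported higher chaperone mRNA in that strain than in ncs2∆elp6∆. The HSF1 transcript level is a different measure from that location. A part of HSF1 in any of these values was not tested.

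U34-modified tRNAs read, among others, the codons AAA, CAA and GAA. Together they made up 14.9% of the MGE1 codons, 14.5% of those of PIM1, 12.7% of SSC1, 12.3% of ECM10, 11.9% of HSP60, 11.3% of HSP10, 11.1% of YME1 and 9.20% of MDJ1, beside a median of 11.3% over 5963 genes. MDJ1 had the lowest share of these codons among the members and MGE1 and PIM1 the highest. The study ties ribosome collisions to codon pairs rather than to single AAA or CAA codons. Its strong stalling pairs are CGA or GCA followed by AAA or CAA. PIM1 and ECM10 held 2 each, MDJ1, MGE1, HSP10 and YME1 held 1 each, and HSP60 and SSC1 held 0. Such a pair was in 40.5% of genes. A part of codon content or codon pairs in the differences between strains was not tested. The study lists MGE1 and PIM1 among its RQC targets, which it chose from disome and monosome profiling of these strains. It lists HSP60 and SSC1 as non-aggregating, a term that it uses for proteins less abundant in the aggregates of ncs2∆elp6∆ than in those of wild type in earlier mass spectrometry, and not for proteins absent from aggregates. Both lists were made with strains compared here, and membership is not independent evidence. The study reports lower mRNA of its RQC targets as a group in ncs2∆elp6∆, relative to its control transcripts, and a reversal in ncs2∆elp6∆hel2∆. Single genes do not test that comparison of groups. Here PIM1 was called higher, and MGE1 had a lower value in ncs2∆elp6∆ that DESeq2 called and edgeR did not.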

How the data were processed

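Libraries were TruSeq stranded preparations of poly(A)-selected RNA from 4 strains with 2 libraries each. The deposited table gives raw counts per gene, which the authors made from reads aligned to sacCer3, and the submitters' processing notes name Bowtie. Per the study's methods, mRNA reads were aligned, untrimmed, to the annotated coding sequences. Unique, sense-strand mapping with bowtie is stated for the ribosome footprints, and whether it was also used for mRNA, and the counting program, are not given in the sources used here. LEU2 and URA3 were not analysed here.

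Strains were grouped by the labels. Counts were scaled by TMM (factors 0.937 to 1.08), filtered with filterByExpr (6087 of 6337 genes kept) and tested with edgeR 4.0.16 (limma 3.58.1, R 4.3.3), by the quasi-likelihood F-test, two-sided, with a mean per strain over all 8 libraries and Benjamini-Hochberg adjustment over all genes tested. A call was an adjusted p under 0.05. CPM used TMM-scaled totals, and log2 CPM a prior count of 2. The fit was tested on simulated data. Replicates of a strain differed by more than sampling noise (chi-square per degree of freedom 21.8 to 40.4) and were kept as separate libraries. Same-numbered libraries of different strains did not deviate together throughout (r from -0.209 to 0.476), so the numbers were not used to pair them.

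Alternatives were DESeq2 1.42.0, other scalings, no filter, a fit to the strains compared, the replicate number as a block, and leaving out each library. Coordinates, codons and upstream sequences came from RefSeq on R64. Genes named beside the members were, per list and comparison, at most the 3 called genes with the largest log2 fold change, the deleted and marker genes, HSF1, and the 3 most similar genes for 4 members. The members, the lists and this rule were chosen with earlier results of these data known.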

Additional observations from a re-analysis of the deposited data

Results flagged for a closer look

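The effect of losing U34 modification on MDJ1 differed between strains with and without Hel2, by a log2 difference of 0.544 in edgeR's interaction term (SE 0.11, adjusted p 0.0454). Both ncs2∆elp6∆hel2∆ libraries, at 242 and 250 CPM, lay above both ncs2∆elp6∆ libraries, at 180 and 170, whereas hel2∆ (114 and 108) overlapped wild type (112 and 118). No other member passed the threshold for this difference.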

How the results depend on the processing

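Over 48 results (8 members in 6 comparisons), 712 alternative values were computed, of which 632 kept direction and side of the threshold, 17 lost a call, 9 gained one and 54 changed sign. No called result changed sign. With DESeq2, 5 members were called in ncs2∆elp6∆ against wild type in place of 3, adding HSP60 and MGE1 as lower. The replicate block gave 0, 3, 1, 3, 3 and 1 called members in the order of the report and changed no call. A block with the ncs2∆elp6∆ numbers crossed, chosen after seeing the data, gave 5 in ncs2∆elp6∆ against wild type. The share of all genes called also moves with the setting. In hel2∆ against wild type it was 0.657% in the main fit, 0.963% with DESeq2 and 1.3% with the crossed block. Counts of members under other settings therefore do not set the members apart from other genes. Leaving out each library gave 2 to 4 called members in ncs2∆elp6∆ against wild type, 0 to 1 in ncs2∆elp6∆hel2∆ against ncs2∆elp6∆, 2 to 3 against hel2∆ and against wild type, and 0 to 1 in the interaction. Where this left a single library, it was assumed to vary like the others.

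Scaling by library totals alone moved the median of all genes to 0.14 in ncs2∆elp6∆ against wild type and to 0.11 in ncs2∆elp6∆hel2∆ against hel2∆. It turned HSP10 (-0.034), PIM1 (-0.037) and YME1 (-0.005) in hel2∆ against wild type, ECM10 in ncs2∆elp6∆ against wild type (0.075), HSP10 (-0.001), MGE1 (-0.003), ECM10 (-0.004), PIM1 (-0.04) and YME1 (-0.047) in ncs2∆elp6∆hel2∆ against ncs2∆elp6∆, HSP60 in ncs2∆elp6∆hel2∆ against hel2∆ (0.001) and PIM1 in the interaction (-0.003). SSC1 changed sign with DESeq2, DESeq2-type size factors and a fit to the strains compared, to -0.006 in each for ncs2∆elp6∆ against wild type and to 0.014, 0.014 and 0.006 for ncs2∆elp6∆hel2∆ against ncs2∆elp6∆.

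Leaving out a library turned the sign of 20 uncalled differences, with these ranges. In hel2∆ against wild type, HSP60 ran from -0.077 to 0.056, HSP10 from -0.041 to 0.086, MGE1 from -0.185 to 0.126, ECM10 from -0.176 to 0.063 and PIM1 from -0.059 to 0.095. In ncs2∆elp6∆ against wild type, SSC1 ran from -0.058 to 0.069 and ECM10 from -0.142 to 0.097. In ncs2∆elp6∆hel2∆ against ncs2∆elp6∆, HSP10 ran from -0.062 to 0.25, SSC1 from -0.029 to 0.067, MGE1 from -0.004 to 0.19, ECM10 from -0.027 to 0.19 and YME1 from -0.007 to 0.092. In ncs2∆elp6∆hel2∆ against hel2∆, ECM10 ran from -0.028 to 0.19. In ncs2∆elp6∆hel2∆ against wild type, SSC1 ran from -0.036 to 0.059 and ECM10 from -0.089 to 0.155. In the interaction, HSP10 ran from -0.089 to 0.223, MGE1 from -0.066 to 0.246, ECM10 from -0.005 to 0.251, PIM1 from -0.073 to 0.081 and YME1 from -0.066 to 0.036. The cause of these changes was not tested, and differences of this size were not detectable here with 2 libraries a strain.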

Other observations

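TOM7, a small subunit of the TOM complex, varied widely within strains, with 17.3 and 48.6 CPM as the lower and higher library of wild type, 17.1 and 53.2 for hel2∆, 34.8 and 40.9 for ncs2∆elp6∆ and 12.1 and 14.4 for ncs2∆elp6∆hel2∆. It was not called on loss of U34 modification with Hel2 present or absent, and it is the point at the bottom of the plot of related mitochondrial genes. SOM1, a subunit of the inner membrane peptidase, was called higher in ncs2∆elp6∆hel2∆ against hel2∆ (log2 difference 0.87, adjusted p 0.0428 by edgeR) at only 3.22 to 7.28 CPM, whereas IMP2 had a difference of -0.997 (adjusted p 0.000685) and IMP1 of -0.69 (adjusted p 0.00191) in that comparison.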
